A study of Mus musculus with 11 samples.

Results

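In each of 10 single-cell Hi-C maps of mouse Th1 cells, the contacts of 1 chromosome pair are described: the pair that exceeded its expected number of contacts by the most in that cell. These 10 leading pairs were chosen by observed minus expected contacts, and no position or compartment was used. They are chromosomes 15 and 19 in cell 1, 12 and 13 in cell 2, 2 and 10 in cell 3, 1 and 3 in cell 4, 6 and 9 in cell 5, 2 and 16 in cell 6, 2 and 9 in cell 7, 11 and 18 in cell 8, 3 and 18 in cell 9, and 13 and 17 in cell 10. They make up 10 of 1900 combinations of a cell and a chromosome pair, and hold 981 of 34444 contacts between different chromosomes (trans contacts), or 2.85%. The contacts of 1 leading pair are called its interface.

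All maps come from CD4+ T-helper cells (Th1) of the spleens of male C57BL/6 mice, with no genetic change or other treatment named. The spleen cells were stimulated with anti-CD3 for 3 days, purified on anti-CD4 beads and expanded with IL-2. The restriction enzyme was Bgl II for 9 single cells and for the ensemble map of many cells. For cell 8 it was Dpn II, whose recognition site is shorter and whose fragments are therefore more numerous. A pooled single-cell map was also used. The sources used here give no ages, and the labels do not say which cells came from separate mice or cultures, so p-values measure the spread between these cells, which may be technical.

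Hi-C ligates neighbouring DNA ends in the fixed nucleus and sequences the junctions, so each contact is a pair of genomic positions. In the interphase nucleus each chromosome fills a territory of its own, and trans contacts come from places where territories touch or mingle. Mouse chromosomes are acrocentric, which means that the centromere lies at one end, position 0 on the map, and the long arm runs from there to the distal telomere. Along the arm, chromatin falls into compartments, an open and gene-rich type and a closed and gene-poor type, and each prefers its own kind. A diploid cell has a pair of copies of each autosome that these maps do not tell apart, so an interface can hold contacts of either copy of each chromosome.

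Total contacts of the 9 Bgl II cells ranged from 11156 to 30665, of which 1803 to 7086 were trans, and cell 8 held 12225, of which 2752 were trans. The ensemble held 51834382 contacts and the pool 2294791. The pool contained all contacts of the 9 Bgl II cells and none of cell 8. The comparisons with the pool therefore used the 92.4% of its contacts that were in none of the listed cells, 2119836 contacts with 432266 trans. A map lists a contact once, without a read number. Which cells the rest of the pool came from was not used here.

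The expected number of contacts of a pair was the cell's trans total times the ensemble's share of trans contacts on that pair. The leading pairs had 29 to 191 contacts and lay 3.08 to 8.52 times above that expectation. The largest ratio was that of 15 and 19 in cell 1, with 61 contacts against 7.16 expected. Chromosomes 11 and 18 in cell 8 had 106 against 14.05, 12 and 13 in cell 2 had 191 against 30.8, 6 and 9 in cell 5 had 142 against 24.7, and 2 and 16 in cell 6 had 58 against 10.7. The other 5 were lower in ratio. Chromosomes 13 and 17 in cell 10 had 35 against 8.30, 3 and 18 in cell 9 had 29 against 7.11, 1 and 3 in cell 4 had 156 against 39.3, 2 and 9 in cell 7 had 58 against 17.2, and 2 and 10 in cell 3 had 145 against 47.1. These values chose the pairs and are given as a description. With an expectation from the cell's own chromosome totals, the ratios ran from 3.10 in cell 3 to 5.19 in cell 1.

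The lead of a pair over the next one differed between cells. In cell 2 the excess of the leading pair was 160 contacts, against 109 for the next pair, 15 and 18. In cell 9 it was 21.9 for 3 and 18 against 21.8 for 6 and 16. The excess in cell 4 was 117 for 1 and 3 against 113 for 2 and 5, and in cell 1 it was 53.8 for 15 and 19 against 49.9 for 1 and 15. In cells 1, 4 and 9 the first place thus rested on a few contacts. The next pair of cell 1 was 1 and 15, with 63 contacts where 13.1 were expected. Chromosomes 4 and 5 were next in cell 3, with 129 contacts where 49.6 were expected, and also in cell 8, with 90 where 22.5 were expected. Cell 5 had 5 and 10 as the next pair, with 116 contacts for 24.01 expected, and cell 6 had 2 and 4, with 52 for 18.3. In cell 7 the next pair was 1 and 14, with 38 contacts for 12.05 expected, and in cell 10 it was 10 and 16, with 29 for 8.17. Ranked by the Pearson residual, which divides the excess by the square root of the expected number, the pair was first in 9 of 10 cells and in the third place in cell 4, where 15 and 17 led with 133 contacts against 20.6. Under other expectations or with neighbouring contacts counted once, it was first in 6 to 9 cells.

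Seen from a single chromosome, the partner took a large share of its trans contacts. The same contacts chose the pair, so a high share and rank follow in part from the choice and are given as a description. Chromosome 19 of cell 1 made 61 of its 166 trans contacts with chromosome 15, or 36.7%, against 5.32% in the ensemble. Chromosome 16 of cell 6 made 35.2% of its trans contacts with chromosome 2, against 7.64% in the ensemble, and chromosome 18 of cell 8 made 32.5% with chromosome 11, against 7.10%. The lowest share was the 14.5% that chromosome 3 of cell 9 made with chromosome 18, against 3.74%. For 19 of the 20 chromosome sides the leading partner held the most contacts of any partner. On chromosome 3 of cell 9 it was tied with chromosome 2, at 29 contacts each. The exception was chromosome 15 of cell 1, which had 63 contacts with chromosome 1 and 61 with chromosome 19. Chromosome 19 of cell 1 had no contact at all with 9 other chromosomes.

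Where the interfaces lay on each chromosome is given as the distance from the centromere end, in mm9 coordinates, with the last position of the ensemble taken as the chromosome's length. The core of an interface is the stretch between the 10th and 90th percentile of its ends on that chromosome. A patch is a group of at least 3 contacts linked to each other by both ends lying within 5 Mb. The gene content of these stretches was not analysed here.

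**Figure D1:**
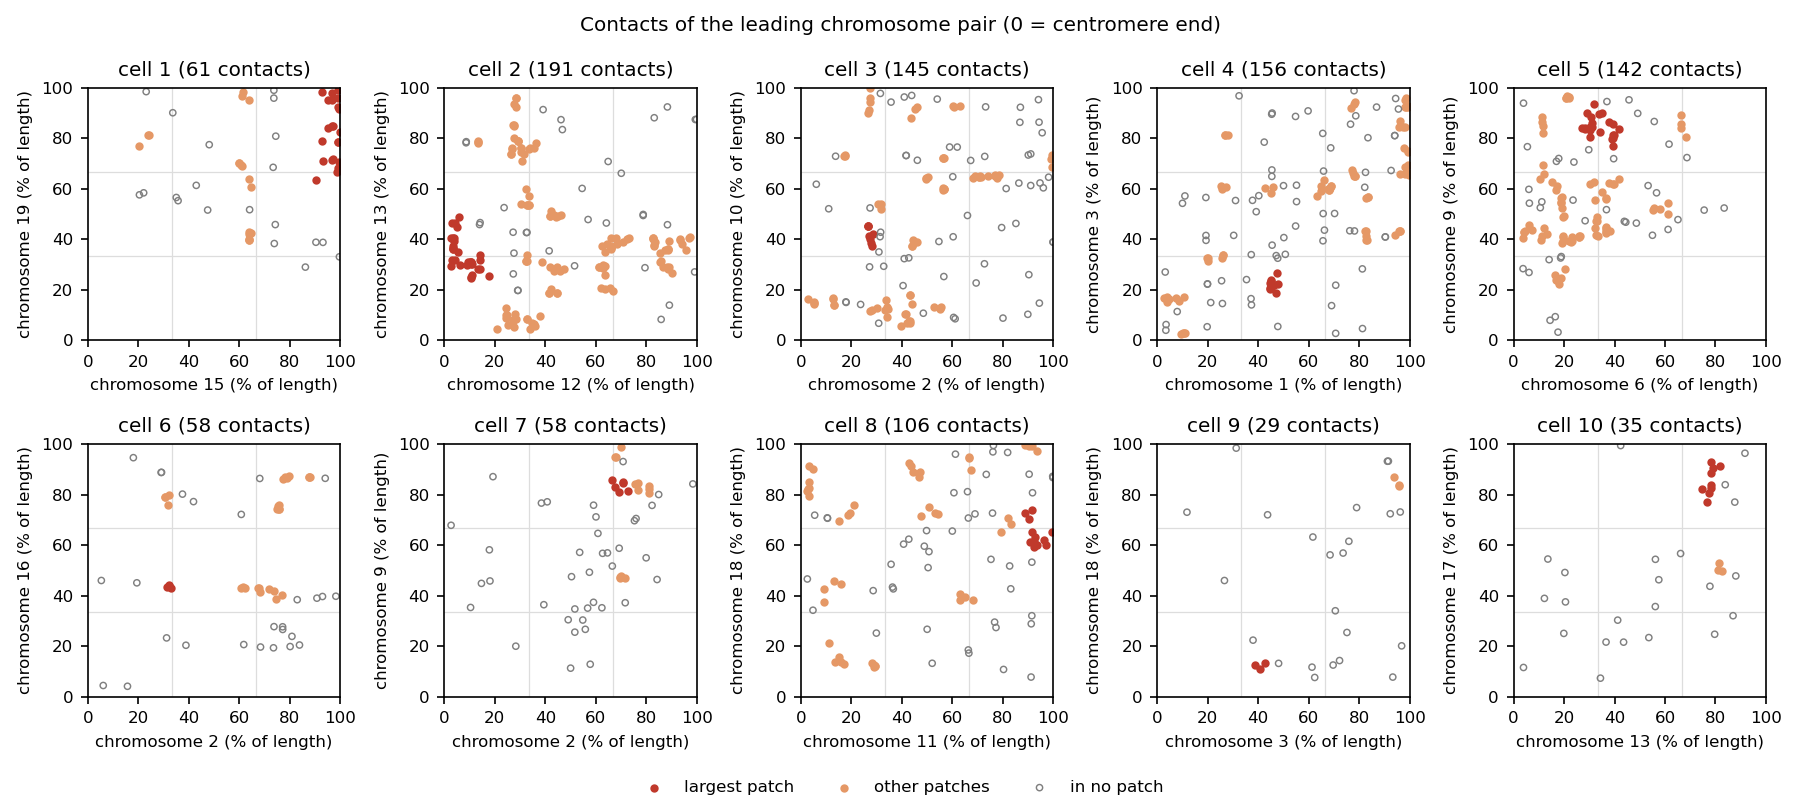
Each panel plots the contacts of the leading pair of 1 cell by the position of both ends, in percent of chromosome length with 0 at the centromere end; grey lines divide each chromosome into 3 equal parts. Red points are the largest patch, orange points the other patches and open points contacts in no patch. The 61 contacts of cell 1 crowd at both distal ends, and the 142 contacts of cell 5 fill the centromeric side of chromosome 6 and leave its last 10 Mb empty.

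The interface of cell 1 was distal on both chromosomes. On chromosome 15 its core ran from 34.8 to 103 Mb with a median of 76.2 Mb, and on chromosome 19 from 24.5 to 59.4 Mb with a median of 43.6 Mb. The last 10 Mb held 25 of 61 ends on chromosome 15, or 41.0%, against 15.9% of ensemble ends on the same pair, and 19 of 61 on chromosome 19, or 31.1%, against 16.8%. The first 13 Mb held no end on either chromosome, so that shares of up to 4.92% are allowed, where the ensemble had 10.5% and 22.5%. Joining the most distal of 3 equal parts of both chromosomes were 26 contacts, against 11.6 expected from the ensemble's distribution over the same pair. The largest patch, at chr15:93483744-103389001 and chr19:38920948-60857812, held 23 contacts, or 37.7% of the interface. Smaller patches of 6 contacts each joined 61.9 to 66.8 Mb of chromosome 15 to 37.3 to 43.0 Mb of chromosome 19, and 66.0 to 66.9 Mb of chromosome 15 to 24.4 to 26.4 Mb of chromosome 19. The interface had 5 patches, which together held 67.2% of its contacts.

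In cell 2, whose interface had the most contacts of the 10, the ends lay toward the centromeres. Its median was 41.1 Mb on chromosome 12, against 74.0 Mb in the ensemble, and 44.6 Mb on chromosome 13, against 57.3 Mb. Contacts joining the centromeric parts of both chromosomes numbered 39, against 17.4 expected, and contacts joining both distal parts numbered 4, against 29.6. The core was nevertheless wide, 11.03 to 107 Mb on chromosome 12 and 16.8 to 94.7 Mb on chromosome 13. In the whole interface there were 17 patches, which held 82.7% of the contacts. The largest, at chr12:3330117-21325419 and chr13:29913285-58914749, had 34 contacts. The next had 19 contacts and joined 100 to 110 Mb of chromosome 12 to 32.0 to 48.6 Mb of chromosome 13. These patches lay 78.8 Mb apart on chromosome 12 and shared 16.6 Mb of chromosome 13, where the first was 29.0 Mb long. A patch of 17 contacts joined 32.1 to 44.0 Mb of chromosome 12 to 85.7 to 96.3 Mb of chromosome 13.

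Cell 3 had an interface spread along both chromosomes, though narrower than the ensemble on chromosome 2. Its interquartile span was 38.6% of chromosome 2, against 58.4% in the ensemble, and 55.7% of chromosome 10, against 44.8%. The core ran from 32.5 to 164 Mb on chromosome 2 with a median of 82.5 Mb, and from 15.5 to 120 Mb on chromosome 10 with a median of 67.8 Mb. This interface had 20 patches, none with more than 8 contacts. The largest was at chr2:48442329-51838888 and chr10:48449915-59033745. A patch of 7 contacts joined 71.9 to 78.8 Mb of chromosome 2 to 7.40 to 13.5 Mb of chromosome 10, and a patch of 6 contacts joined 124 to 130.0 Mb of chromosome 2 to a stretch of 0.808 Mb at 83.8 to 84.6 Mb of chromosome 10.

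The interface of cell 4 ran along the length of both chromosomes, with a tendency to matching order. The core covered 85.9% of chromosome 1, from 21.8 to 191 Mb, and 74.5% of chromosome 3, from 24.5 to 143 Mb. The rank correlation of the positions of both ends was 0.60 over 156 contacts, against 0.12 in the ensemble, so that ends farther along chromosome 1 tended to meet ends farther along chromosome 3. Its 19 patches were small. The largest had 11 contacts at chr1:88307954-94104581 and chr3:29936899-42418067, a patch of 10 contacts joined 125 to 136 Mb of chromosome 1 to 91.5 to 102 Mb of chromosome 3, and a patch of 6 joined 190.1 to 197 Mb of chromosome 1 to 104 to 111 Mb of chromosome 3. The last 10 Mb of chromosome 1 held 14.7% of the ends, against 7.25% in the ensemble.

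The interface of cell 5 used the centromeric part of chromosome 6. Its median there was 42.3 Mb, against 83.5 Mb in the ensemble, and its core from 16.3 to 83.3 Mb covered 44.8% of the chromosome, the smallest share of the 20 chromosome sides. Of its ends, 63.4% fell in the first of 3 equal parts of chromosome 6, against 30.5% in the ensemble. None of the 142 ends fell in the last 10 Mb, which allows up to 2.11%, where the ensemble had 7.98%. On chromosome 9 the ends kept away from the centromere, with a core from 48.0 to 110 Mb, a median of 68.5 Mb and 9.86% of ends in the first of 3 equal parts, against 23.5% in the ensemble. This interface had 12 patches, with 73.2% of the contacts. The largest, of 22 contacts, was at chr6:40608812-62644554 and chr9:95710879-115974817. A patch of 13 contacts joined 15.4 to 30.1 Mb of chromosome 6 to 60.7 to 86.0 Mb of chromosome 9. A patch of 12 contacts joined 28.8 to 39.2 Mb of chromosome 6 to 48.0 to 51.2 Mb of chromosome 9.

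The interface of cell 6 favoured the distal side of chromosome 2, where 56.9% of its ends fell in the last of 3 equal parts, against 37.2% in the ensemble. Its core ran from 52.9 to 159 Mb on chromosome 2 with a median of 124 Mb, and from 20.1 to 85.7 Mb on chromosome 16 with a median of 42.9 Mb. Of its 8 patches, those with 5 contacts were short. One, at chr2:57231552-59854839 and chr16:42185944-43353711, covered 2.62 and 1.17 Mb. A second patch of 5 contacts, at chr2:136034585-137649370 and chr16:73054553-74636822, covered 1.61 and 1.58 Mb.

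In cell 7 the interface was distal on chromosome 2, with a median of 121 Mb against 92.0 Mb in the ensemble and an interquartile span of 19.5% of the chromosome, the narrowest of the 20 sides. On chromosome 9 its median was 72.5 Mb, against 66.4 Mb in the ensemble. Contacts joining both distal parts numbered 20, against 9.20 expected. It had 5 patches, with 32.8% of its contacts, and the largest, of 6 contacts, was at chr2:120972358-131984081 and chr9:100341525-106655134. Chromosome 2 was thus in the leading pair of 3 cells, with medians of 121 Mb in cell 7, 124 Mb in cell 6 and 82.5 Mb in cell 3.

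The interface of cell 8 was spread over both chromosomes. This cell was cut with another enzyme than the ensemble it is set against, and in these values the enzyme and the cell cannot be told apart. The core ran from 11.3 to 112 Mb on chromosome 11 with a median of 73.5 Mb, and from 13.4 to 84.8 Mb on chromosome 18 with a median of 59.1 Mb, against 45.6 Mb in the ensemble. Among its 12 patches, the largest had 12 contacts at chr11:108182426-121386651 and chr18:53796180-67001971. A patch of 7 contacts joined the first mapped megabases of chromosome 11, 3.21 to 5.82 Mb, to 72.3 to 83.1 Mb of chromosome 18. A patch of 5 contacts joined 13.4 to 21.02 Mb of chromosome 11 to 11.8 to 19.2 Mb of chromosome 18.

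Cells 9 and 10 had the smallest interfaces. In cell 9 the 29 ends on chromosome 3 had a median of 113 Mb, against 87.9 Mb in the ensemble, and 5 of them, or 17.2%, fell in the last 10 Mb, against 5.86%. On chromosome 18, 9 of the 29 ends, or 31.0%, fell in the first 13 Mb, against 10.6% in the ensemble. The largest of its 2 patches had 3 contacts, at chr3:61812545-68249290 and chr18:9997213-11972110. In cell 10 the 35 ends on chromosome 13 had a median of 92.1 Mb, against 55.7 Mb in the ensemble, and on chromosome 17 of 48.0 Mb, against 46.2 Mb. Contacts joining both distal parts numbered 12, against 4.22 expected. One patch of 9 contacts at chr13:89730763-98599071 and chr17:73600961-88729352 held 25.7% of the interface.

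**Figure D2:**
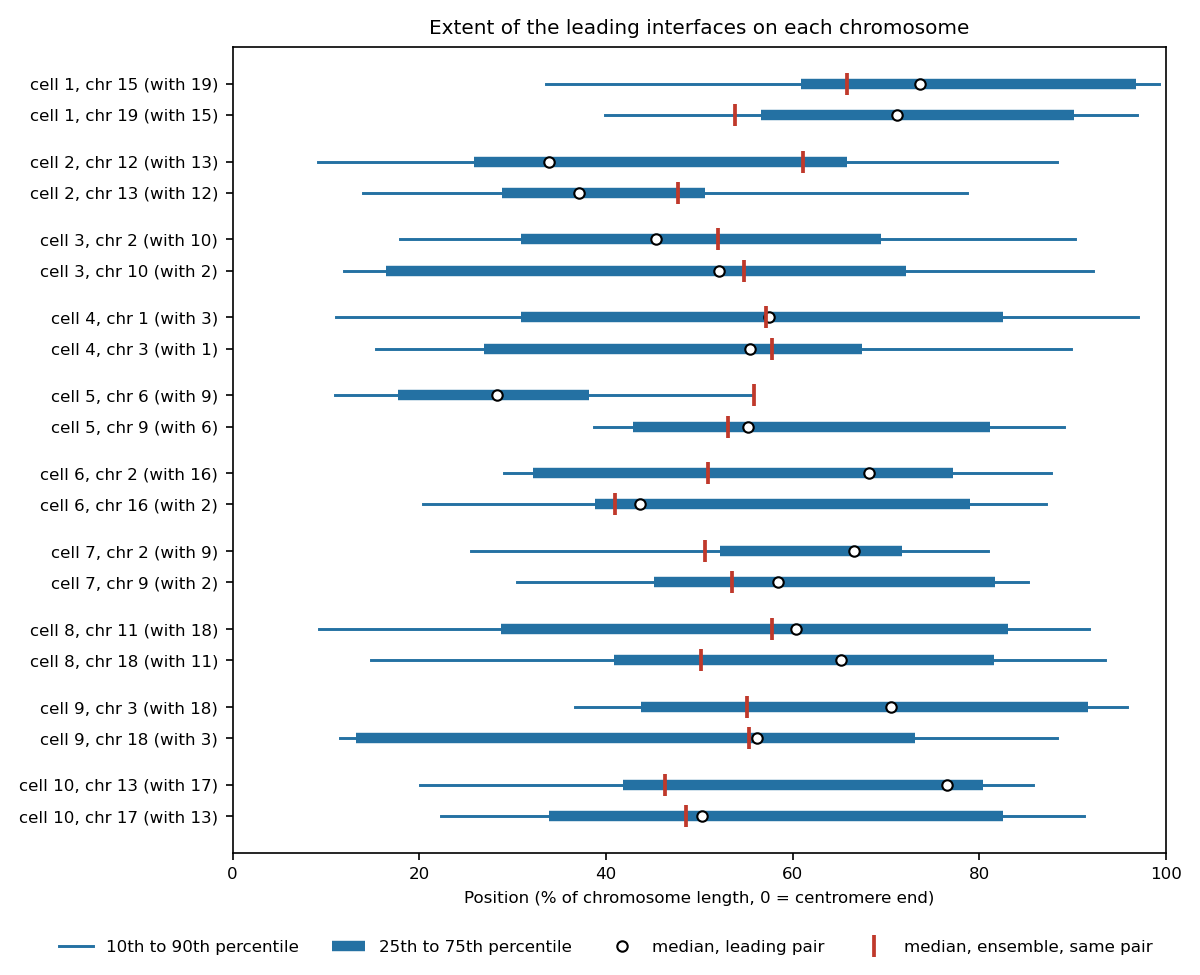
Position in percent of chromosome length, with 0 at the centromere end, of the leading pair's ends on each of the 20 chromosome sides. Thick bars span the 25th to 75th percentile, thin lines the 10th to 90th, circles mark the median in the cell and red ticks the median of ensemble contacts on the same pair; the median in the cell was the more distal on 14 of 20 sides.

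Across cells, the place of the interface along the chromosome varied. The median end of the interface lay distal to the ensemble's median on 14 of 20 chromosome sides. The mean end position was 55.0% ± 8.77 of chromosome length for the leading pairs and 51.7% ± 2.95 for the same cells' other trans ends on the same chromosomes (SD, n = 9 Bgl II cells). It was higher in the leading pair in 7 of 9 cells, and lower in cells 2 and 5. The mean difference of 3.26 ± 8.91 points did not pass the test (exact sign-flip permutation test over 9 cells, two-sided, p = 0.297, Benjamini-Hochberg adjusted p = 0.510 over 6 tests). The test can give no p below 0.0039 with 9 cells.

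The interfaces covered long stretches. The core was 35.0 to 169 Mb long over the 20 chromosome sides, with a median of 78.4 Mb, or 44.8% to 85.9% of the chromosome. The interquartile span was 39.6% ± 9.13 of the chromosome in the leading pairs and 49.9% ± 3.88 in the ensemble on the same pairs (SD, n = 9 Bgl II cells), and it was narrower in 8 of 9. The cell with the wider span was cell 9, with 53.9% against 44.0%. The mean difference of -10.3 ± 11.01 points had an exact sign-flip p of 0.0313 and an adjusted p of 0.129, and so did not pass the threshold of 0.05. Without cell 9 the difference was -12.8 points and the exact test gave an adjusted p of 0.0469, where the alternatives ranged from 0.0469 to 0.258. In cell 8 the span was 47.5% against 46.6% in the ensemble.

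The order of contacts along both chromosomes also differed between cells. The rank correlation of both end positions was 0.60 in cell 4, 0.49 in cell 10 and 0.48 in cell 7. It lay between 0.16 and 0.32 in cells 1, 3, 5, 8 and 9, and was -0.0098 in cell 2 and -0.046 in cell 6. In the ensemble the same pairs had values between -0.029 and 0.12, and 8 of 10 cells lay above their pair's ensemble value. No such count over the cells' other chromosome pairs is set beside it, so it cannot tell the leading pairs from others. Contacts of 1 interface share a cell and many share a patch, so these coefficients, over 29 to 191 contacts, describe the maps and carry no test.

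The 10 interfaces held 102 patches, with 603 of 981 contacts, or 61.5%, and 254 contacts had no other contact within the linking distance. No such share of other chromosome pairs is set beside it, and the part of contact density in it was not tested. The number of patches was 8 at the median of the 9 Bgl II cells, with 2 in cells 9 and 10, 5 in cells 1 and 7, 8 in cell 6, 12 in cell 5, 17 in cell 2, 19 in cell 4 and 20 in cell 3. Cell 8 had 12. The number moved with the number of contacts, with 2 patches at 29 and 35 contacts, 12 at 106 and 142, and 17 to 20 at 145 to 191, but not strictly, since cell 2 with 191 contacts had fewer than cell 3 with 145; its part in the patch number was not tested. The number also depends on the definition: the median was 5 with a linking distance of 10 Mb and 3 with a minimum of 5 contacts. The order of cells changed too. Cell 2 had 24 patches and cell 3 had 13 with a linking distance of 2 Mb, cell 4 had 14 and cell 3 had 10 with 10 Mb, and cell 2 had 12 and cell 3 had 8 with a minimum of 5. Patches differed in concentration as well. The largest patch held 37.7% of the contacts in cell 1 and 25.7% in cell 10, but 5.52% in cell 3 and 7.05% in cell 4. With a linking distance of 10 Mb it held 83.8% in cell 5, against 15.5% with 5 Mb, 52.8% in cell 8, against 11.3%, and 22.8% in cell 3, while cell 1 kept 37.7%, so the order of the cells by concentration rests on the linking distance. Each largest patch covered 2.62 to 22.04 Mb of the first chromosome of the pair and 1.17 to 29.0 Mb of the other.

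Nearly every contact of the interfaces had fragment ends of its own. The 981 contacts had 1961 distinct fragment ends, and a single end was used again within an interface, in cell 2. Of the ends, 3.11% had a second partner anywhere in the cell, against 2.84% of the cells' other trans ends. Contacts with a neighbour within 1 Mb at both ends made up 53.9% of the interface in cell 2, 37.7% in cell 1 and 5.71% in cell 10.

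Where a stretch of one chromosome took part in more than 1 of the named patches, cis contacts between their stretches of the other chromosome were counted. Only stretches at least 10 Mb apart were used. In cell 1, the patches on chromosome 15 that lay 26.7 Mb apart were joined by 9 cis contacts, against 8.19 expected from the ensemble. On chromosome 19 of cell 1, patches 10.9 Mb apart were joined by 2, against 3.71 expected. On chromosome 12 of cell 2, the patches 78.8 Mb apart, which shared 16.6 Mb of chromosome 13, were joined by 3, against 5.93 expected. With both copies of each chromosome in 1 map, patches of a single copy and of different copies cannot be told apart.

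Some further chromosomes had many contacts with both members of a leading pair. Counted here were chromosomes with at least 10 contacts and a ratio of 2 or more with each member. There were 7 among 180 combinations, or 3.89%, against a background of 1.87% over the other chromosome pairs of the 10 cells, and the difference was not tested. In cell 1 these were chromosome 1, with 63 contacts to chromosome 15 against 13.1 expected and 20 to chromosome 19 against 8.54, and chromosome 8, with 33 against 10.00 and 18 against 6.73. In cell 5 they were chromosome 18, with 77 contacts to chromosome 6 against 15.5 expected and 63 to chromosome 9 against 16.2, and chromosome 8. The X chromosome took this place in cell 4, with 98 contacts to chromosome 1 against 14.5 expected, and in cell 7, with 19 contacts to chromosome 9 against 4.22. In cell 8 it was chromosome 9, with 68 contacts to chromosome 18 against 11.8. The other 5 cells had none. The leading pairs were chosen for contacts above the same expectation, and the background pairs were not. Their shares of 3.89% and 1.87% are therefore not on equal terms.

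Use of the core by other partners was also counted. The share of the cell's other trans ends that fell inside the core was 65.8% ± 13.5, against 66.9% ± 11.6 of ensemble ends with the same other chromosomes (SD, n = 9 Bgl II cells). The difference of -1.17 ± 3.38 points, positive in 4 of 9 cells, did not pass the test (exact sign-flip p = 0.340, adjusted p = 0.510). In cell 5 the core took 44.4% of the other trans ends, against 48.7% in the ensemble, and in cell 3 it took 78.1%, against 73.9%.

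Compartment classes were taken from the ensemble at 1 Mb, from the sign of the leading eigenvector of each chromosome's cis correlation map. Class 1 is the side with more ensemble fragment ends per bin and covered 37.7% of 2515 bins. No gene annotation was used, so the classes are numbered and not called open or closed. Neither classes nor positions enter the measure taken as the one that chose the pairs.

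**Figure D3:**
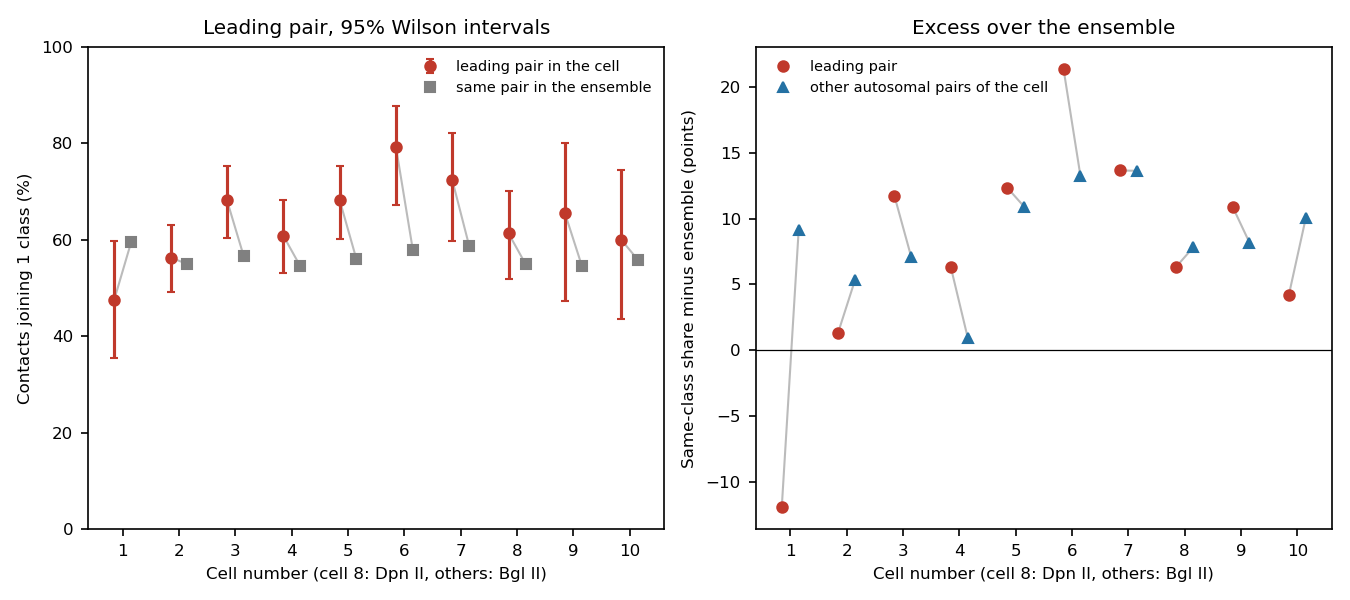
In the left panel, circles give the percent of the leading pair's contacts that join bins of 1 class, with 95% Wilson intervals, and squares the percent for ensemble contacts on the same pair. In the right panel, circles give the difference between them in percentage points and triangles the same difference over the cell's other autosomal pairs; cell 1 lies below 0 at -11.9 points and cell 6 is highest at 21.4.

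Contacts joining bins of the same class made up 47.5% of the interface in cell 1 (29 of 61, 95% Wilson interval 35.5% to 59.8%), against 59.5% in the ensemble. In the other 9 cells the share was above that of the ensemble. The highest was cell 6, with 79.3% (46 of 58, interval 67.2% to 87.7%) where the ensemble had 57.9%. Cell 7 had 72.4%, against 58.8% in the ensemble. Cells 3 and 5 both had 68.3%, where the ensemble had 56.6% on the pair of cell 3 and 56.0% on that of cell 5. Cell 9 had 65.5%, against 54.6%. The rest were closer to the ensemble: cell 8 had 61.3% against 55.0%, cell 4 had 60.9% against 54.6%, cell 10 had 60% against 55.8%, and cell 2 had 56.3% against 55.0%. Wilson intervals cover counting error alone, and neighbouring contacts are not independent.

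Over the 9 Bgl II cells the share averaged 64.3% ± 9.35 for the leading pairs and 56.5% ± 1.81 for the ensemble (SD, n = 9), a difference of 7.77 ± 9.42 points, positive in 8 of 9. The exact sign-flip test gave p = 0.0430 and an adjusted p of 0.129, which does not pass. Leaving out cell 1 gave a difference of 10.2 points and an adjusted p of 0.0469 by the exact test, where the alternatives ranged from 0.0469 to 0.408. The other pairs of these cells showed an excess over the ensemble too. The leading pairs had 7.77 ± 9.42 points where the cells' other autosomal pairs had 8.72 ± 3.97. The difference between these excesses was -0.951 ± 8.74 points (exact sign-flip p = 0.828, adjusted p = 0.828), and it turned to 1.56 points without cell 1.

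The classes in contact differed between interfaces. In cell 6, 35 of 58 contacts, or 60.3%, joined class 2 to class 2, against 19.4% in the ensemble on the same pair, and 11 joined class 1 to class 1. The patch at 136 to 138 Mb of chromosome 2 had all 5 of its contacts between class 2 bins. Class 2 with class 2 also lay above the ensemble in cells 3, 5, 7, 8 and 9. Its share was 48.3% of the interface of cell 9, where the ensemble had 31.2%, and 42.3% of that of cell 5, where the ensemble had 24.1%. Cell 8 had 41.5%, against 22.3% in the ensemble, cell 7 had 36.2%, against 20.7%, and cell 3 had 34.5%, against 20.3%. Class 1 with class 1 lay above the ensemble in cell 4, with 34.6% against 25.2%, in cell 10, with 37.1% against 30.5%, and in cell 2, with 35.3% against 33.5%. In cell 1, 29 of 61 contacts joined class 1 of chromosome 15 to class 2 of chromosome 19, and 3 joined class 2 of chromosome 15 to class 1 of chromosome 19. Its largest patch, of 23 contacts, had 21 ends in class 1 on chromosome 15 and 8 in class 1 on chromosome 19.

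Class 1 bins held 47.4% ± 9.99 of interface ends and 49.2% ± 6.14 of the same cells' other trans ends on the same chromosomes (SD, n = 9 Bgl II cells). The difference of -1.84 ± 13.5 points did not pass the test (exact sign-flip p = 0.746, adjusted p = 0.828). It was positive in 4 of 9 cells. Cell 4 had 54.2% of interface ends in class 1, against 41.6% of its other trans ends, and cell 2 had 57.2%, against 45.4%. The lowest difference was in cell 6, with 29.3% of interface ends and 61.0% of other trans ends. Of the other cells with class 2 to class 2 contacts above the ensemble, cell 3 had 1.22 points, cell 5 -4.36 and cell 7 -2.37. Cell 8 had -12.0 and cell 9 -9.01. Without cell 6 the mean difference was 1.90 points. Over the 23 patches named here, 144 of 252 contacts, or 57.1%, joined bins of the same class. The whole interfaces had 47.5% in cell 1 to 79.3% in cell 6, and the ensemble had 54.6% to 59.5% on these pairs. In 5 patches, of 5 to 8 contacts each, all contacts joined bins of the same class.

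Each leading pair was then looked up in the other 9 cells and in the rest of the pool. Over the 90 combinations of a leading pair and another cell, 10 had at least 5 contacts and a ratio of 2 or more to the expected number, or 11.1%. The background, the same count over all pairs of the 10 cells without the leading pairs, was 13.8% (261 of 1890). A ratio above 1 was found in 29 of 90 combinations, or 32.2%, against 36.7% of the background. Both shares of the leading pairs were thus near or below those of chromosome pairs at large, and the difference was not tested.

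**Figure D4:**
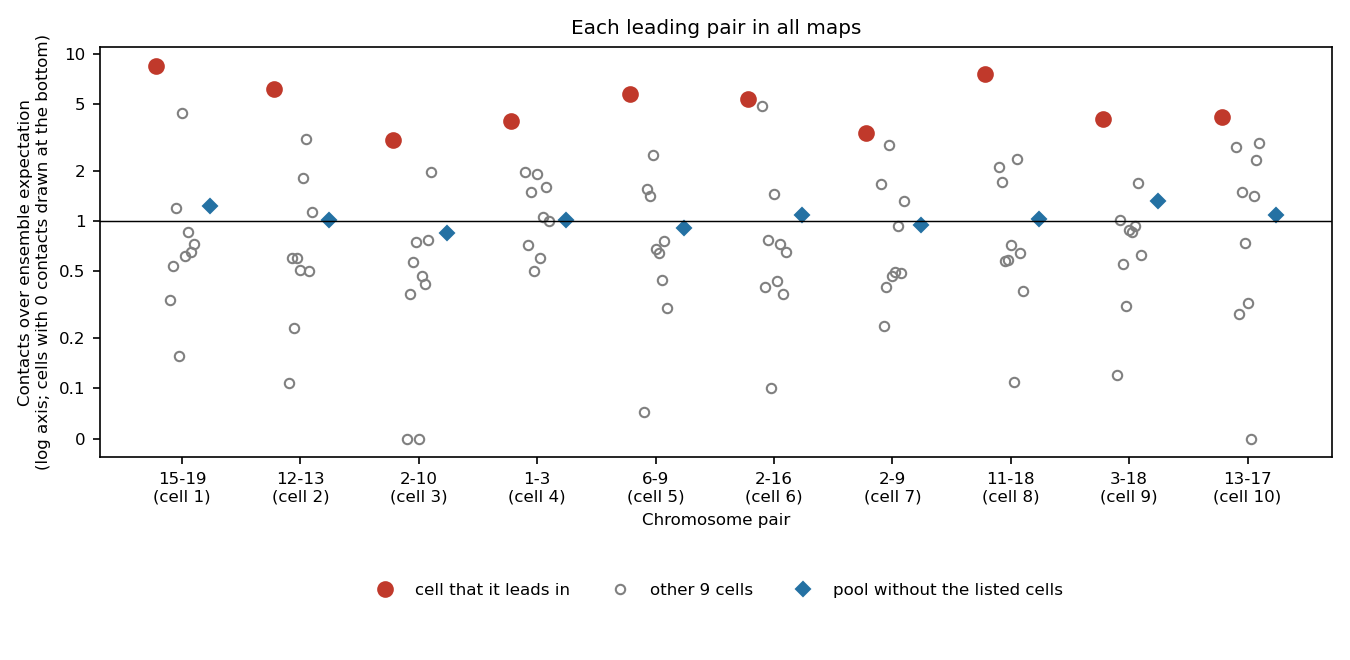
The ratio of contacts to the number expected from the ensemble is shown on a log axis for each leading pair, in the cell it leads in (filled circles), in the other 9 cells (open circles; cells with 0 contacts are drawn at the bottom) and in the pool without the listed cells (diamonds). The 10 diamonds lie between 0.845 and 1.31, while the ratios in other cells reach 4.87.

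Among the other cells, the pair of 15 and 19 had a ratio of 0.157 at the lowest, 0.650 at the median and 4.46 at the highest, with 27 contacts against 6.05 expected in cell 6. The pair of 2 and 16 had 0.101, 0.658 and 4.87, the last from 62 contacts against 12.7 expected in cell 1. Cells 1 and 6 thus each had the other's leading pair at over 4 times the expected number. The places used were compared too, with no test. In cell 6, 15 of the 27 contacts of 15 and 19 lay within 5 Mb at both ends of a contact of cell 1, against 10.7 expected from the ensemble, and in cell 1, 12 of the 62 contacts of 2 and 16 lay within 5 Mb of one in cell 6, against 12.4 expected.

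The pair of 13 and 17 was at or above 2 times the expectation in 3 other cells, with 2.77 in cell 1, 2.32 in cell 8 and 2.95 in cell 9, and had no contact in cell 6, where a count of 0 allows a ratio of up to 0.409. The pair of 11 and 18 reached 2.11 in cell 1 and 2.35 in cell 7. The pairs of 12 and 13 (3.09 in cell 8), 6 and 9 (2.49 in cell 4) and 2 and 9 (2.86 in cell 4) passed in 1 other cell each. The pairs of 2 and 10, 1 and 3, and 3 and 18 passed in none, with highest ratios of 1.96, 1.97 and 1.69. The pair of 2 and 10 had no contact in cells 1 and 6, which allows ratios of up to 0.181 and 0.215.

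In the rest of the pool the 10 pairs stood near the expectation, with a median ratio of 1.03 against 1.01 over all 190 chromosome pairs, whose range was 0.766 to 1.46. The highest was 3 and 18, with 2203 contacts, a ratio of 1.31 (95% Poisson interval 1.26 to 1.37) and the fifth place of 190. It was followed by 15 and 19, with 1777 contacts, a ratio of 1.23 (1.17 to 1.28) and place 12. With neighbouring contacts, within 1 Mb at both ends, counted once, the ratio of 15 and 19 was 0.862. This count gave ratios from 0.838 for 11 and 18 to 1.37 for 3 and 18, with a median of 0.981 over the 10 pairs. The pair of 2 and 9 had 0.839, and that of 2 and 10 had 0.917. The part of contact density in these ratios was not tested. The lowest were 2 and 10, at 0.845 (0.814 to 0.876) and place 182, and 6 and 9, at 0.912 and place 161. The other 6 pairs lay between 0.945 and 1.10. The intervals cover counting error alone.

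The places in contact were compared in the same way. Of the contacts of the leading pairs in the other 9 cells, 502 of 1676 lay within 5 Mb at both ends of a contact of the interface, against 539 expected from the ensemble's distribution on the same pairs. In the rest of the pool 7896 of 25404 did, against 8084 expected. The share was above that of the ensemble in 3 of 10 pairs for the other cells, and in 2 of 10 for the rest of the pool. For the pair of cell 5 the share was 29.6% in the other cells (73 of 247) and 39.1% in the rest of the pool, against 37.1% in the ensemble. For the pair of cell 1 it was 43.8% in the other cells (39 of 89) and 33.9% in the rest of the pool, against 39.7% in the ensemble. Both pairs thus lay on opposite sides of the ensemble in the other cells and in the rest of the pool. The rectangle of both cores was counted as well, with no test. In every pair the other 9 cells had a smaller share of contacts inside it than the ensemble. It was 26.1% against 26.9% for the pair of cell 7, and 36.9% against 55.1% for that of cell 3. In the rest of the pool the share went both ways, with 25.6% against 23.9% for the pair of cell 5. For that of cell 3 it was 52.9% against 55.1%.

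The named patches were looked up as well. The rectangles of the 23 patches held 47 contacts of the other 9 cells, against 38.5 expected, and 501 contacts of the rest of the pool, against 566 expected. For 9 patches no other cell had a contact, and 7 patches were above their expectation in the rest of the pool. The 10 largest patches alone held 22 contacts of the other cells, against 26.0 expected. The patch of cell 2 at 100 to 110 Mb of chromosome 12 had the most contacts in other cells, 10 in 4 cells against 2.09 expected, which is about the whole excess of the 23 patches there, and in the rest of the pool it had 31 against 39.3. The patch of 13 contacts in cell 5, at 15.4 to 30.1 Mb of chromosome 6, had 76 contacts in the rest of the pool against 47.5 expected, and 2 in the other cells against 4.58.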

How the data were processed

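Hi-C maps of 10 single Th1 cells, 1 ensemble and 1 pool were used. The deposited files list, for each contact, both ends as chromosome and position in bp, per the file headers, on mm9, per the submitters' processing notes. Aligner and read filters: not given in the sources used here. In cell 8, 3 contacts outside chromosomes 1 to 19 and X were left out.

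The pairs, and the measures, were chosen with earlier results of these data known. The excess that ranks pairs was taken as observed minus expected contacts. Regions named were each pair's core, its largest patch and up to 2 more patches of at least 5 contacts. Classes came from the ensemble, balanced in 50 rounds without bins whose row sum was under 0.2 of the median. The 6 tests were exact two-sided sign-flip permutation tests over 9 Bgl II cells, Benjamini-Hochberg adjusted; cell 8 was described beside them. Ratios compare counts with ensemble shares, so depth limits them: the smallest interface has 29 contacts. Tools were pandas 2.3.3, scipy 1.17.1, numpy 2.4.6 and matplotlib 3.10.9 under Python 3.11.15. Alternatives were other bins, links, spans, cores and expectations, all 10 cells, each cell left out, and contacts within 1 Mb counted once.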

Additional observations from a re-analysis of the deposited data

Results flagged for a closer look

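Of 16 measures compared over the 9 Bgl II cells, 2 had 1 cell far from the others by Dixon's criterion, which chance gives in about 1 of 20 measures. Cell 1 had the lowest same-class excess of the leading pair relative to its other pairs, -21.1 points, with the next lowest cell at -5.83. Cell 6 had the lowest share of interface ends in class 1 relative to the cell's other trans ends, -31.7 points, with the next lowest at -9.01.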

How the results depend on the processing

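In 86 combinations of a result and an alternative, the result kept its direction and its side of the threshold or moved by less than the spread, and in 6 it did not. The mean same-class difference from the ensemble ranged from 6.07 to 10.2 points with 1 cell left out, and passed without cell 1. Also with 1 cell left out, the same-class difference from other pairs ranged from -2.08 to 1.56 and turned positive without cell 1, the class 1 difference ranged from -3.63 to 1.90 and turned positive without cell 6, and the span difference ranged from -12.8 to -8.39 and passed without cell 9. Without the bins nearest 0 in the eigenvector, the same-class difference from other pairs was -5.91 and the class 1 difference -3.75. For all 4, the cause beyond the cell left out was not tested. The median patch number was 5 with links of 10 Mb, 6 with links of 2 Mb and 3 with at least 5 contacts per patch, against 8. A larger minimum lowers the number by construction. Links of 10 Mb can change it either way, and raised it from 2 to 3 in cell 9 and from 2 to 4 in cell 10. The median ranged from 6.5 to 10 with 1 cell left out. Classes without balancing gave no value, because 16 of 20 chromosomes then had under 10% of bins in 1 class. Each test was paired within a cell, since it set a cell's leading pair against its own reference value. No test compared groups of maps, and replicate numbers only name cells. Interfaces of 29 to 61 contacts limit patches and positions in 5 cells.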
